A study of Arabidopsis thaliana with 3 samples.

Results

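A group of 10 genes of the endoplasmic reticulum (ER) protein folding system were followed across the 3 RNA-seq libraries of the *SlHsfA3* overexpression study. They are the Hsp70 genes *BiP1*, *BiP2* and *BiP3*, the ER Hsp90 gene *Hsp90.7*, the lectin chaperone genes *CNX1*, *CRT1a* and *CRT1b*, the protein disulfide isomerase genes *PDIL1-1* and *PDIL1-2*, and the transcription factor gene *bZIP60*. They were picked by locus, as genes of 1 pathway, with earlier results of these data known. All 10 were found among the 33602 genes of the deposited table. The study drove the tomato heat stress transcription factor gene *SlHsfA3* from the 35S promoter in *Arabidopsis* of the Col-0 ecotype. This promoter is active in most plant cells. The study asked which genes the factor changes without any stress. The independent overexpression (OE) lines #3 and #6 were compared with wild-type Col-0, with 1 library for each. Each library came from the pooled aerial parts of 20 plants aged 4 weeks, grown at 22°C with 16 h of light and 8 h of darkness and not exposed to heat. The level of the tomato transgene itself was not analysed here.

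Proteins that enter the secretory pathway fold in the ER lumen, where BiP binds exposed hydrophobic stretches, the calnexin and calreticulin lectins hold glycoproteins, and disulfide isomerases pair cysteines. When unfolded proteins build up, a set of genes for these helpers is switched on, which is called the unfolded protein response. In *Arabidopsis* this response runs through IRE1, which splices the *bZIP60* mRNA into its active form, and through bZIP28, a membrane-bound factor that is cut free in the Golgi by S1P and S2P. Heat shock factors, by contrast, are best known for switching on chaperones of the cytosol and the organelles.

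The Col-0 library held 9968154 reads in genes, that of line #3 11556077 and that of line #6 10786332. Ribosomal RNA genes took between 20.9% and 32.5% of them, and read counts were therefore scaled with TMM factors of 0.981, 0.945 and 1.08 into CPM, the read count of a gene relative to the depth of its library. With this scaling the 18802 tested genes had a median log2 fold change of 0.0058. The 5 leaf markers together had 25700 CPM in the Col-0 pool, 24427 CPM in line #3 and 24397 CPM in line #6, and of the 4 root markers *IRT1*, *COBL9* and *EXPA7* had at most 4 reads in any library, while *PYK10* had 61.1, 59.3 and 76.9 CPM in the same order. The 6 tapetum and pollen markers summed to 26.1, 85.5 and 2.58 CPM in the same order, but did not move together. *GRP17*, *ATA20*, *ATA27* and *LTP12* were above Col-0 in line #3 and below it in line #6. *A9* (2.15, 0.458 and 0.0859 CPM) and *MS2* (2.25, 0.550 and 0.344 CPM) were below Col-0 in both lines. These markers thus differed between the pools, and their part in the results below was not tested. In pooled aerial parts, fewer cells of a type and less RNA per cell cannot be told apart.

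None of the 10 genes passed the test of both OE lines against Col-0 (edgeR, adjusted p under 0.05), in a comparison where 0.425% of all tested genes did. The adjusted p-values of the 10 ran from 0.169 for *BiP3* to 0.917 for *CNX1*, and DESeq2 called 0 of them as well. At an unadjusted p under 0.05 (edgeR), *BiP3* and *Hsp90.7* were higher, which is 2 of 10 genes beside 3.72% of all tested genes. Since the 10 were chosen with earlier results of these data known, such counts only describe them. All 9 chaperone genes had a higher level in both lines than in Col-0, and *bZIP60* had a lower level in both. Of all tested genes 34.9% were above and 34.6% below Col-0 in both lines. The share above was 29.6% among the 4107 genes with a mean level at or above that of the lowest of the 10. The median log2 fold change of the 9 chaperone genes was 0.38, or 1.30-fold, with 0.40 in line #3 alone and 0.36 in line #6 alone. Their summed level was 2921 CPM for Col-0, 4027 CPM for line #3 and 3714 CPM for line #6, which is 1.38 and 1.27 times the Col-0 sum. All of these comparisons share the same Col-0 library, and genes of one pathway are not independent of each other, so the shared direction counts as 1 observation on 1 Col-0 pool rather than as 9.

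The upstream sequences of 3 genes are shown first, chosen for the largest fold change and for the most copies of a binding-site element. *BiP3* had the largest fold change and held a TCATCG element (also called UPRE-III) on the opposite strand, 193 bases before the start, where it reads as its reverse complement. *Hsp90.7* and *CRT1a* held the most copies of CCACG, the tail of the ER stress response element ERSE. Each sequence is the 250 bases before the annotated gene start in TAIR10.1, from RefSeq, written 5′ to 3′ along the gene, with TCATCG or CCACG on either strand in capitals. The windows lie at chr1:2931851-2932100 for *BiP3*, chr4:12556059-12556308 for *Hsp90.7* and chr1:21092710-21092959 for *CRT1a*, all on the minus strand.
BiP3: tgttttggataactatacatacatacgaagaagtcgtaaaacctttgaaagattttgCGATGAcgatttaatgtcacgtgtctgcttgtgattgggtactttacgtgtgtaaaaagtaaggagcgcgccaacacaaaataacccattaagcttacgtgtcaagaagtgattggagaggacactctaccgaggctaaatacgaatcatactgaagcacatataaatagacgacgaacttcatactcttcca
Hsp90.7: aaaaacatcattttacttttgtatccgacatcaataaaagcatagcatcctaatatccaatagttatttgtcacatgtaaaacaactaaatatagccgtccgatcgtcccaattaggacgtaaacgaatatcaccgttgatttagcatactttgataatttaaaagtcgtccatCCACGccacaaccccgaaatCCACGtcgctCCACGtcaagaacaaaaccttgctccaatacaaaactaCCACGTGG
CRT1a: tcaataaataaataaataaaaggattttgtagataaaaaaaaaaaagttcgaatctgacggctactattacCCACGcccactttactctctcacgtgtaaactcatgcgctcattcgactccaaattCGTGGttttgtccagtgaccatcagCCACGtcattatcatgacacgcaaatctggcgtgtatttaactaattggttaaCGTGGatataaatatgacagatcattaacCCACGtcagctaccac
In the *Hsp90.7* window CCACG started 76, 56, 46, 8 and 5 bases before the gene start. The last pair of these overlap on opposite strands and form the palindrome at the very end of the window. In the *CRT1a* window it started 179, 123, 98, 45 and 16 bases before the start.

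Over the 27443 protein-coding genes with such a window, CCACG was present on either strand in 15.0%. Among the 10 genes it was present in 6, namely *BiP2*, *Hsp90.7*, *CRT1a*, *CRT1b*, *PDIL1-1* and *PDIL1-2*. TCATCG was present in 6.45% of all windows and, of the 10, in that of *BiP3*. The bare ACGT core of bZIP sites, which overlaps CCACG wherever a T follows, was in 44.1% of all windows and in 8 of the 10. CCAAT, the other end of the ERSE, was in 46.0% of all windows and in 9 of the 10. The complete ERSE, CCAATNNNNNNNNNNCCACG, was in 0.026% of all windows, and the shorter ERSE-II, ATTGGNCCACG, was in 0.062%. Neither was found in the windows of the 10. A pair of inverted heat shock element units, GAANNTTC, was in 9.55% of all windows and the everted pair TTCNNGAA in 7.68%, and neither was found in the 10. The window of *Hsp22.0-ER*, a small Hsp gene of the ER that is described below, held neither pair as well. Imperfect heat shock elements were not searched for. For *SlHsp21.5-ER*, a tomato homologue of *Hsp22.0-ER*, the paper reported heat shock elements in the promoter and binding of SlHsfA3 to them. No match says only that these letters are not in these 250 bases, and the annotated starts were not checked against the reads.

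The 3 BiP genes encode the Hsp70 of the ER lumen. *BiP1* (AT5G28540) had 551 CPM in the Col-0 pool, 764 CPM in line #3 and 728 CPM in line #6. Both OE lines lay above Col-0 and close to each other, at 1.39 times its level (95% exact interval 1.34 to 1.44, counting error only) in line #3 and 1.32 times (1.28 to 1.37) in line #6. Over both lines this was 746 ± 25.5 CPM (SD, n = 2 lines), a log2 fold change of 0.44 (SE 0.22), which did not pass the test (edgeR adjusted p = 0.726). *BiP2* (AT5G42020) had 395 CPM in the Col-0 pool, 505 CPM in line #3 and 487 CPM in line #6. Again the OE lines lay together above Col-0, by a smaller step than for *BiP1* (log2 fold change 0.33 with SE 0.21, edgeR adjusted p = 0.820).

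*BiP3* (AT1G09080), which in unstressed plants is the minor BiP gene and is strongly induced by ER stress, had 24.1 CPM in the Col-0 pool, 48.8 CPM in line #3 and 37.6 CPM in line #6. These rest on 236, 533 and 437 reads. Line #3 was highest, line #6 lay between, and the counting intervals of the ratios to Col-0, 1.73 to 2.37 and 1.33 to 1.83, both lay above 1. The mean of the lines was 43.2 ± 7.97 CPM (SD, n = 2 lines). The log2 fold change was 0.84 (SE 0.21, 95% interval 0.39 to 1.29), the largest of the 10, and 3.75% of all tested genes had a larger one. It did not pass after adjustment over all genes (edgeR adjusted p = 0.169). *BiP3* made up 2.49% of all BiP reads in the Col-0 pool, 3.70% for line #3 and 3.00% for line #6.

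*BiP1* and *BiP2* share 96.8% of the bases of their coding sequences, and 238 of the 2737 windows of 100 bases in the *BiP1* transcript, or 8.70%, occur identically in *BiP2*. The rule for reads that fit several places is not given in the sources used here, so the split of such reads between this pair is uncertain. With their reads summed, the log2 fold change was 0.39 (SE 0.24, edgeR adjusted p = 0.803). The share of *BiP1* in the pair was 58.2% in the Col-0 pool, 60.2% for line #3 and 59.9% for line #6. The transcripts of the other 8 genes had no such window in common with another gene, and the RefSeq annotation places no other gene over any of the 10. The upstream windows of *BiP1* and *BiP2* also share a run of 17 bases on chromosome 5, which starts 18 bases before the annotated start of *BiP1* and 111 bases before that of *BiP2* and is shown here because it sits at different distances from the annotated starts of this otherwise similar pair.
Run shared by BiP1 and BiP2: taatagaagaagactgg

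*Hsp90.7* (AT4G24190, also SHEPHERD), the ER member of the Hsp90 family, is needed in *Arabidopsis* for the CLAVATA pathway of the shoot meristem. It had 645 CPM in the Col-0 pool, 1106 CPM in line #3 and 864 CPM in line #6. Both OE lines were above Col-0, and line #3 stood well above line #6. The ratio to Col-0 was 1.71 (1.66 to 1.77) in line #3 and 1.34 (1.30 to 1.38) in line #6, and line #6 had 0.782 times the level of line #3 (0.761 to 0.803). The mean was 985 ± 171 CPM (SD, n = 2 lines) and the log2 fold change 0.61 (SE 0.24, 95% interval 0.09 to 1.13), which did not pass after adjustment (edgeR adjusted p = 0.564). *Hsp90.7* took 22.1% of the summed CPM of the 9 chaperones in the Col-0 pool, 27.5% for line #3 and 23.3% for line #6.

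CNX1 is a membrane-bound and CRT1a and CRT1b are soluble lectins that keep sugar-tagged proteins in the ER until they are folded. *CNX1* (AT5G61790) had 499 CPM in the Col-0 pool, 577 CPM in line #3 and 587 CPM in line #6. The OE lines differed by less than their counting error and lay slightly above Col-0, with the smallest fold change of the 9 chaperones (log2 0.22 with SE 0.21, edgeR adjusted p = 0.917). *CRT1a* (AT1G56340) had 218, 288 and 278 CPM in Col-0, line #3 and line #6. The lines lay together above Col-0 (log2 fold change 0.38 with SE 0.20, edgeR adjusted p = 0.747). *CRT1b* (AT1G09210) had 263, 315 and 309 CPM in the same order. Here too the lines were alike within counting error and above Col-0 (log2 fold change 0.25 with SE 0.20, edgeR adjusted p = 0.887). The coding sequences of *CRT1a* and *CRT1b* share 84.2% of their bases. Summed as 1 gene, they had a log2 fold change of 0.31 (edgeR adjusted p = 0.850).

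PDIL1-1 and PDIL1-2 are disulfide isomerases with a classical thioredoxin-like build. *PDIL1-1* (AT1G21750) had 194 CPM in the Col-0 pool, 249 CPM in line #3 and 255 CPM in line #6. The lines did not differ beyond counting error and lay above Col-0 at 252 ± 4.21 CPM (SD, n = 2 lines), a log2 fold change of 0.37 (SE 0.20, edgeR adjusted p = 0.748). *PDIL1-2* (AT1G77510) had 132, 174 and 169 CPM in Col-0, line #3 and line #6. It had nearly the same fold change as *PDIL1-1* (log2 0.38 with SE 0.19, edgeR adjusted p = 0.715).

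*bZIP60* (AT1G42990), the target of IRE1 splicing, was the exception in direction. It had 55.5 CPM in the Col-0 pool, 34.3 CPM in line #3 and 48.4 CPM in line #6, from 543, 374 and 563 reads. Both lines lay below Col-0, and line #3 lay well below line #6. The ratio to Col-0 was 0.617 (0.539 to 0.705) in line #3 and 0.871 (0.773 to 0.982) in line #6, and line #6 had 1.41 times the level of line #3 (1.24 to 1.61). The lines averaged 41.3 ± 9.99 CPM (SD, n = 2 lines), and the log2 fold change was -0.42 (SE 0.21, edgeR adjusted p = 0.706). How far line #6 fell below Col-0 depended on the scaling. Total reads put its log2 ratio to Col-0 at -0.06, where TMM put it at -0.20. For line #3 the values were -0.75 and -0.70 in the same order. The counting intervals above hold for TMM scaling only. Reads were counted per gene, so the spliced and unspliced forms of the mRNA are not told apart by these values.

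**Figure D1:**
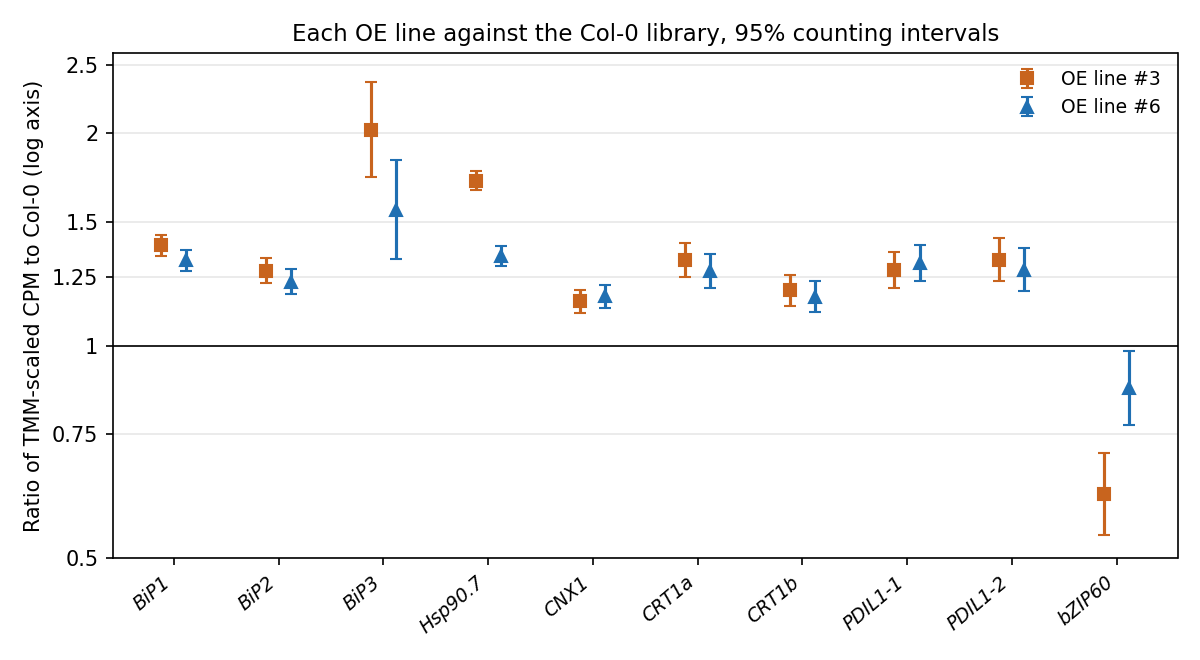
Ratio of TMM-scaled CPM in OE line #3 (squares) and OE line #6 (triangles) to the Col-0 library, on a log axis, with 95% exact intervals that cover counting error only. The 9 chaperone genes lie above 1 in both lines, between 1.16 and 2.02 in line #3 and between 1.17 and 1.56 in line #6, and bZIP60 lies below 1 in both.

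Set side by side, the 2 lines gave like ratios for most of the 10 genes. With TMM scaling, the level in line #6 was below that in line #3 beyond counting error for 3 genes, *BiP1*, *BiP3* and *Hsp90.7*. It was above it for 1, *bZIP60*. For the other 6 the interval of the ratio between the lines included 1. The 95% interval of the log2 fold change over both lines included 0 for 8 of the 10 genes and lay above 0 for *BiP3* and *Hsp90.7*.

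Levels per transcript length, as TMM-scaled RPKM, can be compared between the genes. For *BiP1* and *BiP2* the treatment of reads that fit both is unknown, so their places in the order are uncertain. In Col-0 the order was *CNX1* with 245, *BiP1* with 238, *Hsp90.7* with 238, *BiP2* with 165, *CRT1b* with 151, *CRT1a* with 143, *PDIL1-1* with 102, *PDIL1-2* with 73.2, *bZIP60* with 50.4 and *BiP3* with 11.4 RPKM. The first 3 of these were close together, as were *CRT1a* and *CRT1b*. *Hsp90.7* led in both OE lines, with 407 RPKM in line #3 and 318 in line #6. *BiP1* followed with 330 and 314 RPKM, a range that overlaps that of *Hsp90.7*, and *CNX1* with 284 and 288 RPKM came next. The *CRT1a* range of 183 to 189 RPKM lay just above the *CRT1b* range of 177 to 180. *BiP3* stayed lowest at 23.1 and 17.7 RPKM.

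**Figure D2:**
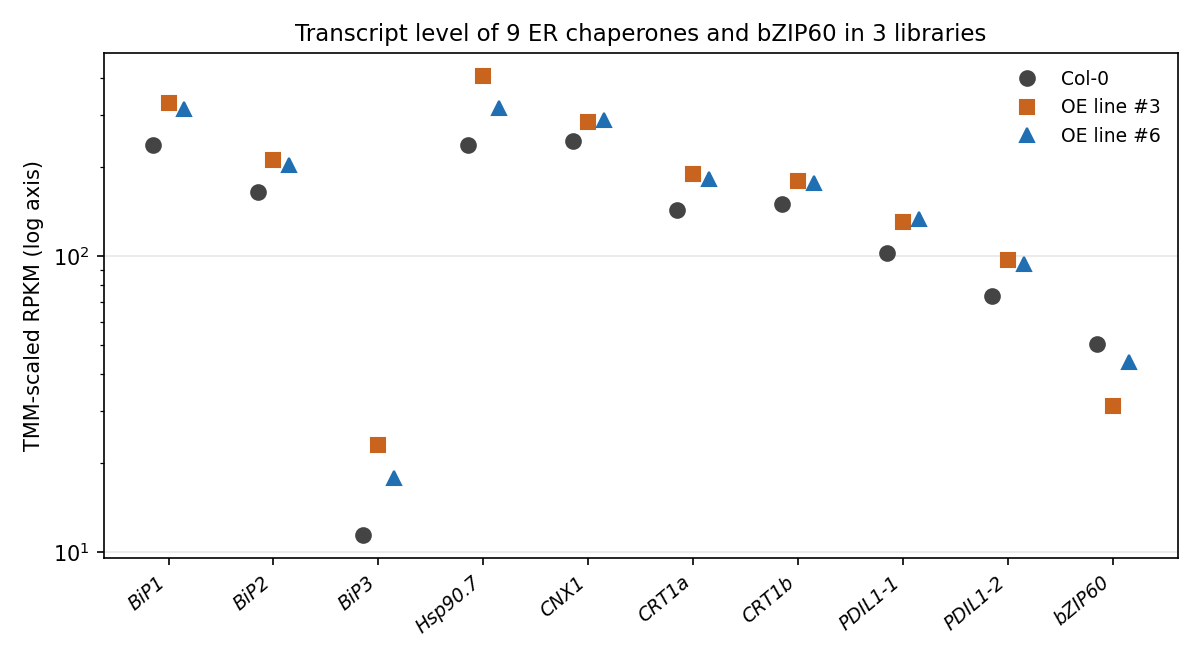
TMM-scaled RPKM, on a log axis, of the 9 ER chaperone genes and bZIP60 in Col-0 (circles), OE line #3 (squares) and OE line #6 (triangles), with 1 pool of plants for each point. The chaperone genes have their lowest point in Col-0, from 11.4 RPKM for BiP3 to 245 for CNX1, and bZIP60 has its highest point there, at 50.4.

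The other genes of the pathway were taken as 5 lists of 50 genes, of which 47 were tested. In these lists 1 gene was higher in the OE lines and 0 were lower (edgeR, adjusted p under 0.05). Over all tested genes 0.425% were called in either direction. At an unadjusted p under 0.05, 8 were higher and 0 lower, beside 3.72% and 3.65% of all tested genes. Of the 47, 27 lay above and 12 below Col-0 in both lines, beside 34.9% and 34.6% of all tested genes. These shares stand beside each list below. The lists, too, were chosen with earlier results of these data known, so their counts are descriptions only. The median log2 fold change of the 47 was 0.15. The lists differed in their medians, as described next, and differences between lists were not tested.

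The list of co-chaperones and proteins of the lectin cycle also holds a further calnexin, a further calreticulin, a small Hsp and *TIN1*. It had a median log2 fold change of 0.37 over 11 genes. Of these, 10 were above Col-0 in both lines and 0 were below it in both. The called gene was *Hsp22.0-ER* (AT4G10250), a small Hsp of the ER that binds unfolding proteins, with 0 reads in Col-0 against 22 for line #3 and 27 for line #6. It was at least 7.07-fold higher in the OE lines, with 3 reads put in place of the Col-0 count of 0 (edgeR adjusted p = 0.0382). It missed the threshold without the filter on low counts (edgeR adjusted p = 0.0668). It is also among the genes that the study listed from these same libraries. *ERdj3A*, a J protein that stimulates BiP, had 11.5 CPM in the Col-0 pool, 22.8 CPM in line #3 and 22.7 CPM in line #6. Its lines were nearly equal and both lay above Col-0 (log2 fold change 0.99, SE 0.21), but it did not pass the test (edgeR adjusted p = 0.0618).

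At an unadjusted p under 0.05 (edgeR), 4 of the 11 genes of this list were higher, beside 3.72% of all tested genes. These were *Hsp22.0-ER*, *ERdj3A*, *ERdj3B* and *Hsp70-17*. *ERdj3B*, a J protein, had 119, 182 and 160 CPM in Col-0, line #3 and line #6 (log2 fold change 0.52, edgeR adjusted p = 0.531). *Hsp70-17*, an Hsp70-like gene, had 151, 234 and 184 CPM (log2 fold change 0.47, edgeR adjusted p = 0.640). *P58IPK*, *SDF2* and *BAG7* had smaller differences. *P58IPK*, another J protein of the ER lumen, had 71.6 CPM in the Col-0 pool, 80.4 CPM in line #3 and 82.4 CPM in line #6. *SDF2*, which forms a complex with a J protein and BiP, had 75.8, 89.1 and 94.9 CPM in the same order. *BAG7*, an ER-resident member of the BAG family of Hsp70 co-chaperones, had 107, 123 and 123 CPM. In each of these both lines lay above Col-0, and their adjusted p-values were 0.917, 0.822 and 0.904 from edgeR. *TIN1*, which is induced by the glycosylation inhibitor tunicamycin, had 28.4 CPM in the Col-0 pool, 27.8 CPM in line #3 and 36.6 CPM in line #6, so the lines lay on opposite sides of Col-0.

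The 13 other disulfide isomerases and oxidases had a median log2 fold change of 0.15, with 8 above and 4 below Col-0 in both lines and 0 called. The smallest p belonged to *PDIL2-1*, with 166 CPM in the Col-0 pool, 238 CPM in line #3 and 217 CPM in line #6 (log2 fold change 0.45 with SE 0.20, edgeR adjusted p = 0.628), followed by *PDIL2-2* with 33.7, 43.8 and 43.1 CPM. In the 8 genes of ER-associated degradation, which carries misfolded proteins out to the proteasome, the median was 0.02, with 0 called and 3 above and 3 below Col-0 in both lines (3 and 0 with total reads in place of TMM). *HRD1B*, a ubiquitin ligase of this pathway, had 23.3, 34.1 and 32.1 CPM in Col-0, line #3 and line #6 (edgeR adjusted p = 0.532). *OS9*, the lectin that recognizes its glycoprotein clients, had 10.4, 16.2 and 14.4 CPM (edgeR adjusted p = 0.564). Both were above Col-0 in both lines.

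Of the 8 genes for translocation into the ER and for glycosylation, 7 were tested, with a median log2 fold change of 0.06, 4 above and 1 below Col-0 in both lines and 0 called. *ERdj2B*, a J protein of the translocon, had 25.5 CPM in the Col-0 pool, 37.5 CPM in line #3 and 32.7 CPM in line #6 (edgeR adjusted p = 0.591). *SEC61B*, a subunit of the channel, had 55.0, 45.1 and 47.3 CPM, both lines below Col-0 (edgeR adjusted p = 0.850).

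The sensors and transcription factors of the unfolded protein response had no common direction. Of 10 genes 8 were tested, 2 were above and 4 below Col-0 in both lines, 0 were called and 0 had an unadjusted p under 0.05, and the median log2 fold change was -0.05. With total reads in place of TMM, 1 was above and 2 were below Col-0 in both lines. The smallest p belonged to *NAC062*, a membrane-bound factor, with 22.1 CPM in the Col-0 pool, 16.8 CPM in line #3 and 19.3 CPM in line #6 (log2 fold change -0.29 with SE 0.20, edgeR adjusted p = 0.842). *bZIP28* followed with 45.5, 32.4 and 43.7 CPM (log2 fold change -0.26 with SE 0.20, edgeR adjusted p = 0.878). In both, as in *bZIP60*, line #3 had the lowest level of the 3 libraries. *NAC103*, which acts below bZIP60, had 4, 2 and 2 reads in Col-0, line #3 and line #6 and was too low to be tested.

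**Figure D3:**
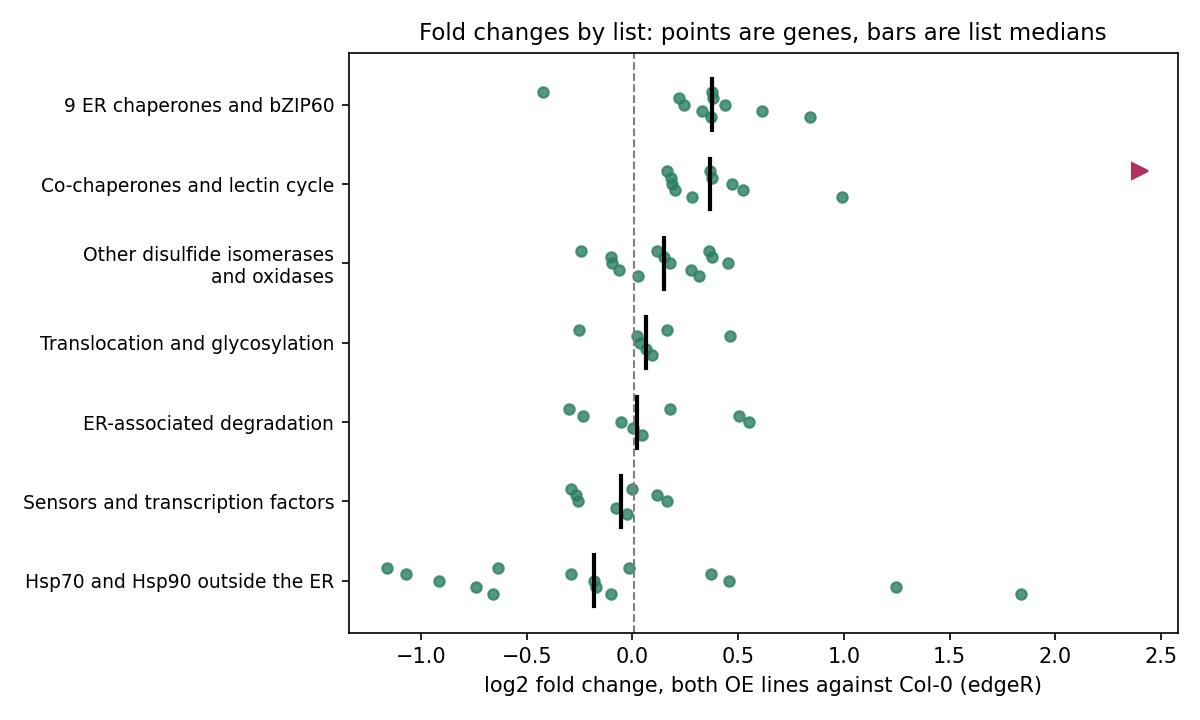
log2 fold change of both OE lines against Col-0 (edgeR) for each tested gene (points), with list medians as bars. The dashed line is the median of all tested genes. Shown are the 9 ER chaperones with bZIP60, 5 lists of the ER pathway, and a list of 15 Hsp70 and Hsp90 genes outside the ER. The medians are 0.38 for the chaperones with bZIP60 and 0.37 for the co-chaperones and lectin cycle, and they run from 0.15 to -0.05 in the other ER lists and stand at -0.18 outside the ER. The arrowhead is Hsp22.0-ER, which lies beyond the axis and had 0 reads in Col-0.

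The Hsp70 and Hsp90 genes of the cytosol, plastids and mitochondria are the nearest relatives of the BiP genes and of *Hsp90.7*. A list of 15 of them had a median log2 fold change of -0.18, with 4 above and 10 below Col-0 in both lines. The list does not cover the whole families. It leaves out *Hsp70T-2*, which the paper listed among the up-regulated genes. *Hsp70* (AT3G12580), a cytosolic Hsp70 that heat induces, rose from 362 CPM in Col-0 to 1158 CPM in line #3 and 1435 CPM in line #6 (edgeR adjusted p = 0.00284). *HSC70-2*, another cytosolic Hsp70, fell from 514 CPM to 187 and 272 CPM in the same lines (edgeR adjusted p = 0.0398). With total reads in place of TMM *HSC70-2* missed the threshold (edgeR adjusted p = 0.235). Sequence shared between *HSC70-2* and other Hsp70 genes was not examined, so the split of reads that fit several of them is uncertain. At an unadjusted p under 0.05, 3 of the 15 were higher and 6 were lower, beside 3.72% and 3.65% of all tested genes. The summed level of these 15 genes was 12249 CPM in the Col-0 pool, 8229 CPM in line #3 and 9614 CPM in line #6. It was lower in both lines, where that of the 9 ER chaperones was higher in both. Much of this sum came from the cytosolic *HSC70-1*, with 5048, 3058 and 3442 CPM, and *HSC70-3*, with 2414, 1042 and 1254 CPM. The sum therefore mostly reflects abundant cytosolic genes. The difference between the ER genes and their relatives was not tested.

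The p-values rest on the spread between the 2 OE pools, with the Col-0 pool assumed to vary like them, on 1 residual degree of freedom and 13.6 prior degrees of freedom. The 95% interval of the log2 fold change ran from -0.03 to 0.91 for *BiP1* and from -0.24 to 0.68 for *CNX1*. Both include 0 as well as the median of the chaperones, 0.38, so for these genes the data do not separate that size of change from none.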

How the data were processed

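RNA from the pooled aerial parts of Col-0 and of OE lines #3 and #6 was sequenced as 1 library each on double-stranded cDNA, and no step that marks the strand is named. Per the labels TAIR10 was the genome build. The count of reads per gene that the authors deposited was used, and their RPKM was left aside. The submitters' processing notes name CASAVA 1.7. Which aligner and counter were run, and how reads with several matches were treated, is not given in the sources used. Cells marked NA were read as a count of 0. The deposited columns of fold changes and Q-values were not used.

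Total gene counts were 9968154 for Col-0, 11556077 for line #3 and 10786332 for line #6. The test set both lines against Col-0 in edgeR 4.0.16 and R 4.3.3 (TMM, glmQLFit and glmQLFTest, prior count 0.125) on the 18802 genes that reached 10 reads in 1 or more libraries, with Benjamini-Hochberg adjustment over all of them. Each SE was derived from the test as the log2 fold change (no prior count) over the root of F, and its 95% interval uses the total degrees of freedom. Intervals of ratios are exact binomial ones and cover counting error only. RPKM was computed here from TMM-scaled CPM and the length in the table. Alternatives covered scaling, filter, DESeq2 1.42.0, a robust fit, each line alone and summed reads of similar genes.

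The 10 genes and the lists were chosen with earlier results of these data known. Named beside the 10 were up to 4 called genes of each list, otherwise the 2 with the smallest p, and *BAG7*, *NAC103*, *ERdj3A*, *P58IPK*, *SDF2*, *TIN1* and *Hsp22.0-ER*. Upstream sequences were read from TAIR10.1 by its own annotation (RefSeq), in which all 10 loci have an entry. Python 3.11.15, pandas 2.3.3, Biopython 1.88 and matplotlib 3.10.9 were used.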

Additional observations from a re-analysis of the deposited data

How the results depend on the processing

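The 10 genes kept their direction and 0 were called under all alternatives tried (DESeq2 size factors, total reads, TMM without ribosomal RNA and organelle genes, other filters, a robust fit and DESeq2). Each line alone gave a median log2 fold change of 0.356 to 0.379 with no test, since no residual degrees of freedom remain, and counts of called genes were therefore not recomputed for 1 line. Scaling by total reads gave a median of 0.419 for the 10 genes, and it moved the median of all genes to 0.14 in line #6 and -0.05 in line #3. The median of the 9 chaperone genes was then 0.35 in line #3 and 0.50 in line #6, the reverse of the order with TMM. Over all genes, 43 were higher and 37 lower. There were 27 higher and 14 lower with no filter beyond 1 read, 25 and 17 with at least 10 reads in every library, and 14 lower with DESeq2. A ratio on total reads above 2 in each line gave 294 genes, and one under 0.5 gave 119, with no test. The cause of the moves with the filter was not tested. *Hsp22.0-ER* had no adjusted p from DESeq2 and was not tested with at least 10 reads in every library. *HSC70-2* missed the threshold with total reads, no filter beyond 1 read, at least 10 reads in every library and the robust fit (adjusted p = 0.235, 0.136, 0.0618 and 0.0607 from edgeR). *BiP3* and *bZIP60* had the fewest reads of the 10, so their counting error was the largest in proportion. The SE of their log2 fold changes was 0.21 each, beside 0.19 for *PDIL1-2* and 0.24 for *Hsp90.7*, so the SE did not follow the number of reads. The single Col-0 pool limits every comparison.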
